A study of Mus musculus with 2 samples.

Results

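Plagl1 (ENSMUSG00000019817.11) is 1 of the 1718 annotated genes that lie wholly inside stretches of the genome around deposited signal. It was followed here along its whole length, from 20 kb before its first annotated base to 20 kb after its last. It was chosen by name and position, on the (+) strand of chromosome 10 of mm9 (chr10:12810497-12851500), and not by its level. The data are the RNA signal of 2 mouse embryo fibroblast (MEF) lines, 1 for each direction of a cross between 2 strains: JXO, with a JF1 mother and a TgOG2 (OG2) father, and OXJ, with an OG2 mother and a JF1 father. JF1 is an inbred strain of the molossinus subspecies, and OG2 is a laboratory line of the domesticus subspecies, bred to homozygosity for the GOF18ΔPE-EGFP transgene, so that cells of both crosses carry 1 copy of it. Each line came from 1 female embryo at 13.5 dpc, without its head and internal organs, and was used at passage 2 or 3. Ribosomal RNA was removed, the strand was kept by a dUTP label, and both ends of fragments were read. There was 1 library per cross and no replicate, so the cross, the embryo and the culture cannot be told apart, no p-value was computed, and all intervals given are 95% counting intervals of a library.

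The Plagl1 protein, also called ZAC1 or LOT1, is a zinc finger transcription factor that binds GC-rich DNA and can stop the cell cycle or start apoptosis when it is overproduced. The gene is imprinted in mouse and human: the copy from the mother is methylated at the CpG-rich promoter and silent in most tissues, and the copy from the father is transcribed. Plagl1 is abundant in embryonic mesoderm and cartilage, is downregulated in many tumours, and is placed at the centre of a network of imprinted growth genes that includes Igf2, H19 and Cdkn1c. The authors list Plagl1 as paternally expressed in these MEF lines, by variant reads and by allelotyping. By that call the RNA came mainly from the OG2 copy in JXO and from the JF1 copy in OXJ. A difference between the crosses can thus not be told apart from one between these copies. Which parental copy a read came from is not marked in the deposited signal and was not analysed here.

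Values are mean scaled depths, that is, the mean number of reads over a base per 50000000 aligned reads of the library. A single read adds 0.652 to a base in JXO and 0.579 in OXJ. The deposited signal holds 7.61% of the aligned reads of JXO and 6.70% of those of OXJ, in 618 stretches of the genome. The stretches were drawn here by joining covered bases at most 50 kb apart. A gene without RNA can therefore lie outside them, as can a gene whose signal was left out, and these cannot be told apart. A base outside the stretches thus says nothing on silence. Of 15 fibroblast markers only 3 lie inside them, namely Col1a2 (583 in JXO and 388 in OXJ), Dcn (22.9 and 25.9) and Lum (18.9 and 15.5), while none of the epithelial, endothelial, blood or muscle markers do. The label of the cells could therefore be checked only in part. The cartilage markers inside were Col2a1 at 423 in JXO and 361 in OXJ and Sox9 at 2.96 and 3.53, and the neural markers were Nes (340 and 155) and Sox2 (1.27 and 1.22). Of 3 germ cell genes, Pou5f1 and Dppa3 were at 0 in both libraries and Ddx4 was at 0.980 in JXO and 4.14 in OXJ. The part of other cell types in the Plagl1 level was not tested.

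The stretches of sequence on which the results below turn are the DNA just before the gene, the splice sites around the eighth exon block and the end of the RNA. The first is chr10:12810388-12810496 (mm9, + strand), which runs up to the first annotated base, with CpG pairs in capitals. The second (chr10:12836490-12836519) holds 2 alternative acceptor sites of the same exon, with the AG of each in capitals. The third (chr10:12836573-12836602) is the end of that exon, with the GT of the donor site in capitals, and the last (chr10:12851471-12851500) is the annotated end of the longest transcript with its AATAAA in capitals.
before Plagl1: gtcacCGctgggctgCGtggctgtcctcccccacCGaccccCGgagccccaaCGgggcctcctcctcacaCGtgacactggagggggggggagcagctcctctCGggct
acceptor pair: acgatgtccaAGgtctcttctcacAGgttt
donor: ctgctctcacagaagGTacggaagtttaag
end: tacatatAATAAAtgctaagcatctggcaa

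Plagl1 RNA was found at a moderate level on the annotated strand in both crosses. Over the 7289 exon bases the level was 25.97 (24.7 to 27.3) in JXO and 17.3 (16.3 to 18.4) in OXJ. This placed Plagl1 above 59.0% of 646 protein-coding genes in JXO, whose median was 16.9, and above 57.3% in OXJ, where the median was 11.4. These 646 are the ones, of 939 inside the stretches, with at least 10 pairs in both libraries together, so genes near 0 are left out. In reads, 3565 of JXO and 2669 of OXJ lay over the whole gene on the (+) strand, against 103 and 88 on the (−) strand, so that 97.2% (96.3 to 97.9%) and 96.8% (95.7 to 97.7%) of the signal was in the sense orientation. The introns were at 1.28 (1.14 to 1.42) in JXO and 0.833 (0.732 to 0.945) in OXJ. The intron level was thus 0.0492 of the exon level in JXO and 0.0481 in OXJ, higher than in 67.0% of 515 and 65.5% of 521 genes, whose medians were 0.0281 and 0.0296.

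**Figure D1:**
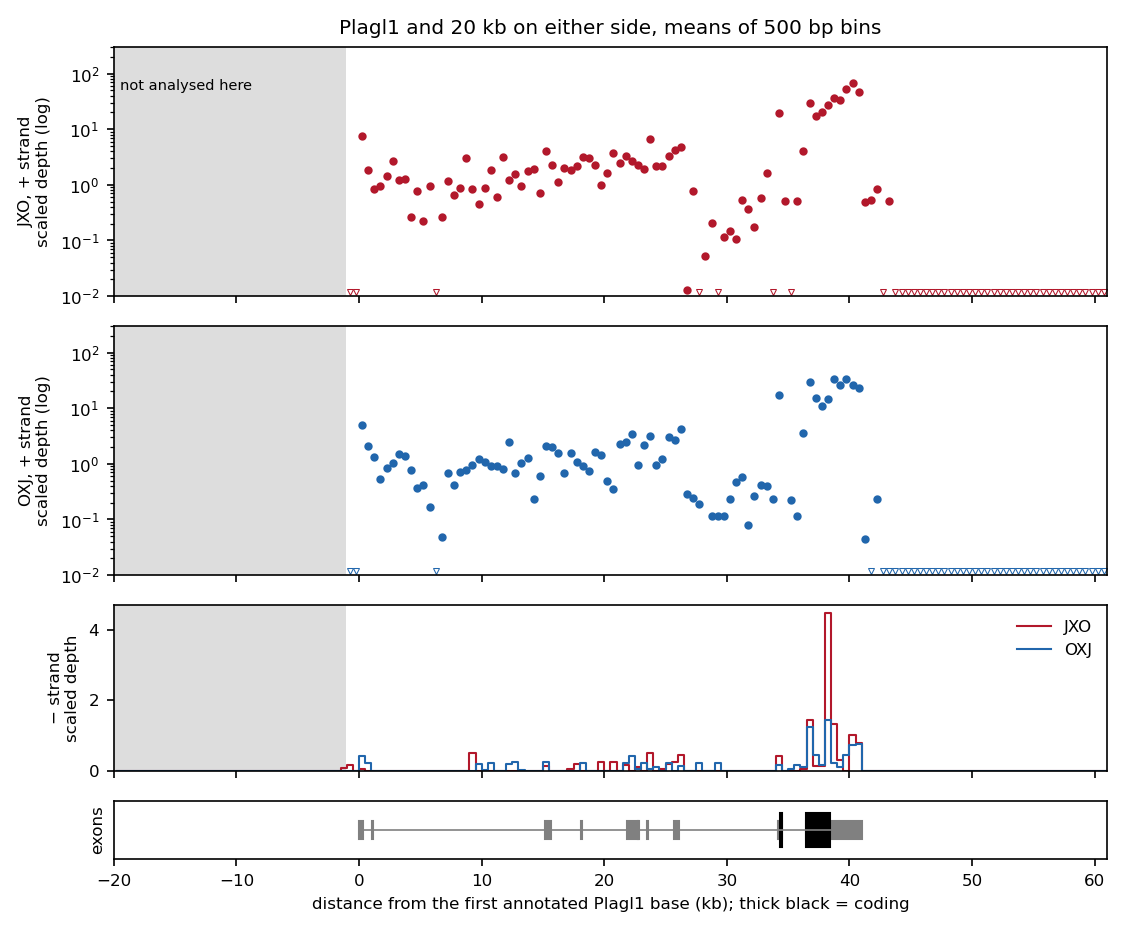
Mean scaled depth in 500 bp bins along Plagl1 and 20 kb on either side, for the (+) strand of JXO and OXJ (log axes, open triangles at the bottom are bins at 0) and for the (−) strand of both (linear axis), above the merged annotated exons. The shaded part before the gene lies outside the stretch of joined covered bases that holds the gene. It had no (+) read, and no level is read from it. The 2 bins just before the gene were at 0 on the (+) strand, 51 of the first 52 bins of the gene had signal in both crosses, and the signal dropped from about 26 kb to the next exon at 34 kb.

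The 5′ end of the RNA lay at the CpG-rich promoter. Of the 27 annotated transcripts 23 start within the first exon block (chr10:12810497-12810830), and 14 of these share the start 12810638, which is also the RefSeq start. The first base with a (+) read was 12810531 in JXO and 12810500 in OXJ, that is, 34 and 3 bases after the first annotated base. The 20 kb before it held no (+) read in either cross, but only the nearest 1038 bases lie in the same stretch as the gene. Whether signal of the farther bases was left out is not known, so no level is read from them. For the nearest 1038 bases, 0 reads allow a level of up to 0.463 in JXO and 0.411 in OXJ by counting error. The RefSeq promoter window, 300 bases around that start (GRCm38.p6 sequence, matched once to mm9 at chr10:12810388-12810687), holds 26 CpG pairs, a number reached by 16.9% of the 32851 promoters of the same length, and has a GC content of 70.7%, reached by 8.58%. In this window GGGCGG, the core of the Sp1 site, was found 2 times (present in 35.7% of all promoters) and CACGTG, the E-box, 1 time (7.15%), counting both strands. The CpG pairs inside these motifs are among the 26, and the CACGTG lies in the printed stretch. The TATA box TATAAA was not found in it (present in 13.6% of promoters), nor was the CCAAT box (37.4%). The GC-rich palindrome GGGGCCCC, described as bound by the Plagl1 protein, was not found either (1.08%).

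Of the other annotated first exons none reached the level of the first block over bases of its own. The first block was at 10.1 (6.58 to 14.8) in JXO and 7.33 (4.54 to 11.2) in OXJ, which includes bases before the common start, and its last 100 bp were at 19.1 and 15.6. A start at 12836170, inside the gene, has 332 bases of its own, which were at 4.36 (2.18 to 7.78) and 2.52 (1.03 to 5.14). The intron just before it was at 3.50 (2.65 to 4.53) and 2.12 (1.51 to 2.89), and the intervals of this first exon and of that intron overlapped in both crosses. The first exon at 12833271, of 39 bases, had a level of 1.27 in JXO and 0 in OXJ, with upper bounds of 14.9 and 10.95, because so short a part is seen by few reads. The starts 12811589 and 12844665 have no bases that other transcripts do not use as inner exons and could not be told apart from them. Measured over own bases, the first block had 64.2% of the summed first-exon level in JXO and 74.4% in OXJ.

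The small leader exons, which precede the coding sequence, were covered in both crosses. A leader exon of 39 bases (chr10:12825661-12825699) was at 21.0 (7.94 to 45.0) in JXO and 17.5 (6.35 to 38.3) in OXJ, one of 32 bases (chr10:12832325-12832356) at 20.6 (6.75 to 47.9) and 20.5 (7.27 to 45.6), and one of 72 bases (chr10:12836516-12836587) at 27.4 (15.4 to 45.1) and 25.5 (14.6 to 41.5). These 3 exons differed by less than their intervals from one another and between the crosses. For the exons that only some transcripts use the means were lower, but their intervals overlapped those of the 39-base and 32-base exons, apart from that of the 86-base exon in OXJ (up to 6.10). The one of 38 bases (the second block) was at 1.65 and 2.80, that of 86 bases (the fourth block) at 4.34 and 0.572, that of 63 bases (the seventh block) at 9.05 and 4.27, and a cassette exon of 22 bases at 1.07 and 6.26. Their intervals were wide and overlapped between the crosses for each of the 4 exons. Parts of exon blocks that transcripts with a retained intron or an early end add to the 39-base and 32-base exons were at 2.40 and 2.49 in JXO and at 1.32 and 2.31 in OXJ, near the level of the introns around them.

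The 2 acceptor sites printed above, which lie 14 bases apart, could be compared because reads that use the first also cover the bases between them. Depth between the acceptors was 17.4 reads in JXO and 17.8 in OXJ, which is 40.9% and 45.1% of the depth over the 14 bases after the second (42.6 and 39.4 reads). Over the 14 intron bases before the first acceptor the depth was 4 and 3 reads, or 9.40% and 7.61%. Signal rose at both sites in both crosses. The shares rest on few reads and are given without a test. At the end of the first exon 2 annotated donor sites lie 4 bases apart. The depth between them was 83.3% of that before the first in JXO (20 against 24 reads) and 59.0% in OXJ (14.75 against 25). These shares rest on few reads too, and a difference between the crosses was not tested.

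**Figure D2:**
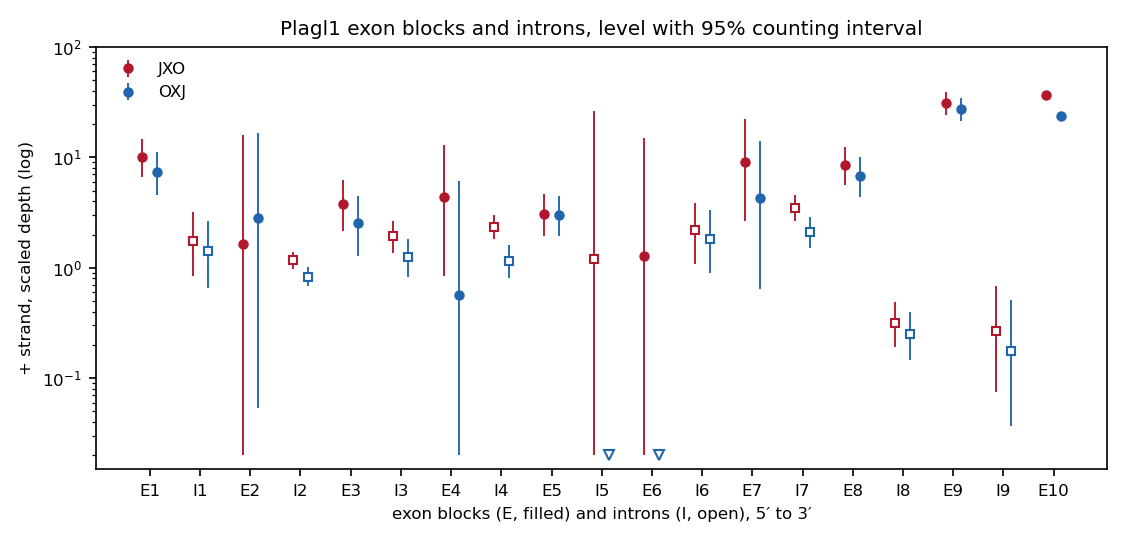
Level of the 10 exon blocks (E, filled) and the 9 introns (I, open) of Plagl1 on the (+) strand, in 5′ to 3′ order on a log axis, with 95% counting intervals (cut at the axis where they reach under 0.02) and open triangles for parts with 0 reads. The introns 1 to 7 lay above the introns 8 and 9 in both crosses, apart from the intron of 20 bases (I5) in OXJ. That intron was at 1.21 in JXO and at 0 in OXJ, with upper bounds of 26.5 and 21.4. The last 2 exon blocks were the highest parts in both crosses.

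Intron signal was unequal along the gene and fell at the end of the eighth exon block. The intron bases before that block were at 1.69 (1.51 to 1.89) in JXO and 1.09 (0.949 to 1.24) in OXJ, while those after it were at 0.307 (0.196 to 0.458) and 0.235 (0.144 to 0.361), that is, 5.50-fold (3.62 to 8.76) and 4.63-fold (2.94 to 7.70) lower. Before it, leaving out the 20 bases of intron 5, the introns 1, 2, 3, 4, 6 and 7 were at 1.76, 1.17, 1.93, 2.36, 2.18 and 3.50 in JXO and at 1.42, 0.832, 1.26, 1.16, 1.83 and 2.12 in OXJ. Intron 2, of 14042 bases, was the lowest of these and intron 7 the highest in both crosses. The introns 8 and 9, of 8074 and 1973 bases, were at 0.316 and 0.270 in JXO and at 0.249 and 0.177 in OXJ. At the donor site printed above, depth changed from 21.7 over the last 100 exon bases to 0.776 over the first 100 intron bases in JXO and from 20.1 to 0.388 in OXJ. The exon block that holds the coding start, between the low introns 8 and 9, was at 31.1 and 27.5. A transcript that ends at the donor site of the eighth block, 12836587, is annotated, as are several that end within the same exon. Within intron 2 the bin centred 6.25 kb from the gene start was the only bin of the first 26 kb without a (+) read, in both crosses. RefSeq also names a noncoding gene, Hymai, in the first part of Plagl1 (annotation of GRCm38.p6), which GENCODE M1 does not list and which was not measured apart.

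The same comparison was made for all protein-coding genes with at least 20 kb of intron, setting the last 10 kb of intron bases against the 10 kb before them. It was chosen after the fall in Plagl1 was seen. The introns after the eighth exon block hold 10047 bases, so in Plagl1 the split lay almost exactly at that fall. In the other genes it lay at no chosen place, so the order below favours Plagl1 and does not show that its fall is particular. In Plagl1 the earlier part was at 2.37 in JXO and 1.36 in OXJ and the last part at 0.305 and 0.232, which is 7.75-fold and 5.87-fold lower. Of the 182 genes measured 3 were at least 5-fold lower in both crosses, or 1.65%, and the median gene was at 0.941-fold and 0.898-fold, with no fall. Plagl1 stood second by the smaller of its folds, after Herc3 (7.18-fold and 6.44-fold) and before Hoxd3 (5.48-fold and 6.23-fold). H13 came next with 4.34-fold and 4.003-fold. These 3 genes were named after their values were seen. As background, Herc3 and H13 host the imprinted retrogenes Nap1l5 and Mcts2 in an intron, and Hoxd3 is a homeobox gene. The part of the RNA of such nested genes in the folds of their hosts was not tested.

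**Figure D3:**
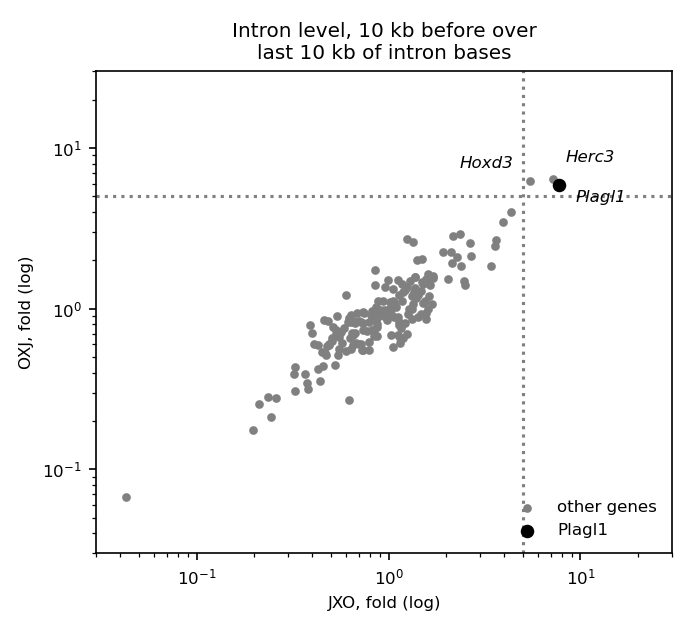
Fold by which the intron level of the last 10 kb of intron bases lay under that of the 10 kb before, in JXO (x axis) and OXJ (y axis), on log axes, with 1 point for each of 182 protein-coding genes and dotted lines at 5-fold. A gene with less than 1 pair of reads in its last part was given the level of 1 pair. Plagl1, Herc3 and Hoxd3 lay above 5-fold in both crosses.

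The body of the mature RNA was carried by the last 2 exon blocks. The ninth block, which holds the coding start, was at 31.1 (24.4 to 38.97) in JXO and 27.5 (21.6 to 34.5) in OXJ, and the last block, of 4553 bases, at 36.6 (34.6 to 38.7) and 23.7 (22.2 to 25.3). In the coding transcript Plagl1-001 the leader exons were at 20.9 (16.8 to 25.7) in JXO and 18.7 (15.01 to 23.0) in OXJ. Its 2112 coding bases (between 12844823 and 12848907) were at 24.1 (21.8 to 26.6) and 18.9 (16.98 to 21.0). Its trailer, the 2593 bases after the coding sequence, was at 46.6 (43.7 to 49.7) and 27.8 (25.6 to 30.03). The trailer was thus 1.93-fold (1.72 to 2.18) above the coding bases in JXO and 1.47-fold (1.28 to 1.68) in OXJ, and the ratio of these folds was 1.32 (1.10 to 1.58). The leader differed from the coding bases by less than the intervals, at 0.867 of their level (0.680 to 1.09) in JXO and 0.987 (0.773 to 1.25) in OXJ. A stretch of 629 bases in the last exon that is spliced out of Plagl1-002 and kept in Plagl1-001 was at 35.6 in JXO and 28.2 in OXJ, beside 27.0 and 16.8 in the 200 bp before it and 33.3 and 29.1 in the 200 bp after it. No fall at that annotated intron was seen.

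Cover ended sharply at the annotated end of the longest transcript. The (+) signal ran without a gap to base 12851500 in JXO and 12851501 in OXJ, where the annotation ends at 12851500 and the AATAAA printed above starts 22 bases earlier. Over the 100 bp before this end the level was 26.4 in JXO and 23.4 in OXJ. Over the 100 bp after it 0 reads were found in JXO and 0.01 in OXJ, which is 1 base of 1 read. A further 4 annotated ends lie in the trailer and none of them has AATAAA or ATTAAA in the 50 bases before it. At 12850788, where 2 transcripts end, the level went from 117 (93.8 to 144) to 64.8 (48.1 to 85.5) in JXO and from 35.6 (24.1 to 50.6) to 19.3 (11.2 to 31.0) in OXJ, with intervals apart in JXO and overlapping in OXJ. At the ends 12849514 and 12849680 the levels before and after differed by less than their intervals in both crosses. Past the gene, 18 reads were found in the next 20 kb in JXO and 2.01 in OXJ, the last of them 2173 and 1262 bases past the end. Over the nearest 5 kb this gave 0.00903 and 0.00134 of the exon level. The gene Fam164b, on the (−) strand 17846 bases past the end, was at 0.0625 in JXO and 0.0816 in OXJ, from under 2 reads in each.

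Between the crosses, the exon level of Plagl1 differed little once the offset between the libraries was taken off. The log2 ratio of JXO over OXJ was 0.58 as deposited, while the median of the 792 genes with at least 10 pairs was 0.46. Relative to that median the ratio of Plagl1 was 0.12 (0.007 to 0.24), larger than that of 61.2% of the genes and inside the quartiles of −0.31 and 0.28. Plagl1 was not among the 68 genes (8.59%) that lay at least 2-fold from the median gene, 22 higher and 46 lower in JXO. By part of the gene, relative to the same median, the log2 ratio was −0.30 (−0.74 to 0.14) for the leader, −0.11 (−0.33 to 0.10) for the coding bases and 0.15 (−0.09 to 0.40) for the introns, all 3 intervals including 0. For the trailer it was 0.29 (0.14 to 0.44). The small positive value of all exons rested on the bases used. It was 0.08 (−0.03 to 0.20) without 2 stretches of the last exon where OXJ fell to 0, and −0.45 (−1.11 to 0.22), of the opposite sign, over the 171 exon bases shared by every protein-coding transcript, and both intervals include 0.

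**Figure D4:**
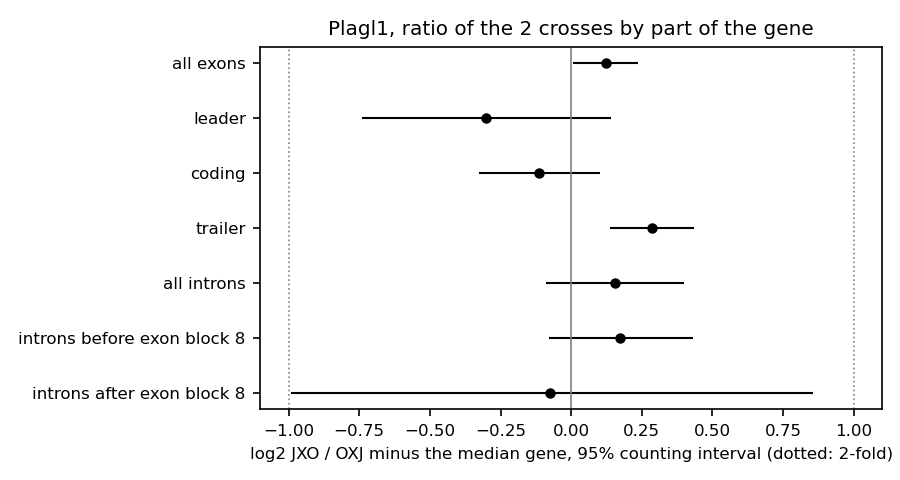
Log2 ratio of JXO over OXJ minus the median gene for parts of Plagl1, with 95% counting intervals and dotted lines at 2-fold. The trailer (0.29) and all exons together (0.12) had intervals above 0, that of all exons only just (from 0.007), and no part reached 2-fold.

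The higher trailer level in JXO was not spread evenly over the last exon. In 46 windows of 100 bp the log2 ratio relative to the median gene ran from −0.80 to 2.76 with a median of −0.06. In 6 windows the interval lay above 0 and in 1 below 0. These 6 windows lay between bases 3701 and 4400 of the exon. The window from base 3701 to 3800 of the exon was at 120 in JXO and 38.9 in OXJ, and the next ones at 77.0 and 23.6, 57.0 and 16.2, 53.0 and 5.68, and 55.6 and 21.6. At the start of the exon, by contrast, the first 100 bp were at 41.3 and 38.5, and the window from 2301 to 2400 was at 49.8 and 49.2. The highest depth was 213 reads in JXO, at 12850692, and 96 reads in OXJ, at 12849315. The 3′ part of the last exon, split at its middle, held 66.6% (63.9 to 69.2%) of its signal in JXO and 60.3% (57.1 to 63.5%) in OXJ.

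At 2 places in the last exon the signal of OXJ fell to 0 while that of JXO went on. The first (chr10:12848593-12848646) is in the coding sequence: at its lowest base, 12848621, OXJ had 0 reads and JXO 26, and 9 bases in all had no read in OXJ. The other (chr10:12850972-12851054) is in the trailer: at 12851008 OXJ had 0 reads and JXO 72, and 25 bases had none. No stretch was found by the same measure, at most 20% of the reads of the other library over at least 20 bases where that other library has 20 reads or more, in which JXO was the lower. Of the 4918 exon bases of Plagl1 with at least 20 reads in JXO, 34 (0.691%) were at 0 in OXJ, and of the 4510 with at least 20 reads in OXJ none were at 0 in JXO. Over all genes measured the shares were 0.0330% and 0.0136%. Of the 429 genes with at least 500 such bases in JXO, 11 (2.56%) had 1 or more at 0 in OXJ. In the other direction, of 407 genes with at least 500 such bases in OXJ, 5 (1.23%) had 1 or more at 0 in JXO. In 4 of the 11 the share was higher than in Plagl1, namely Bst2 (4.91%), Igf2as (2.85%), Peg10 (2.10%) and Slc38a4 (1.10%). Igf2as, Peg10 and Slc38a4 are known as paternally expressed imprinted genes, like Plagl1. Lower shares were found in Zdbf2 (0.640%), Peg12 (0.507%), Impact (0.266%), Rian (0.241%), Tnfaip2 (0.171%) and Herc3 (0.0679%). The authors list Zdbf2, Peg12 and Impact as paternally and Rian as maternally expressed, while Bst2, Tnfaip2 and Herc3 are not among their imprinted genes found. All were named after their values were seen, and the share of imprinted genes among the 429 was not counted. The father of the OXJ embryo was JF1, whose sequence differs from the mm9 genome to which reads were aligned. The part of such differences in these gaps was not tested. Without both stretches, 137 bases together, the log2 ratio of all exons was 0.08 (−0.03 to 0.20) relative to the median gene. The trailer was then 1.30-fold (1.08 to 1.56) further above the coding bases in JXO than in OXJ. The bases beside the stretches stayed in, so this value does not tell whether the trailer difference depends on the gaps.

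**Figure D5:**
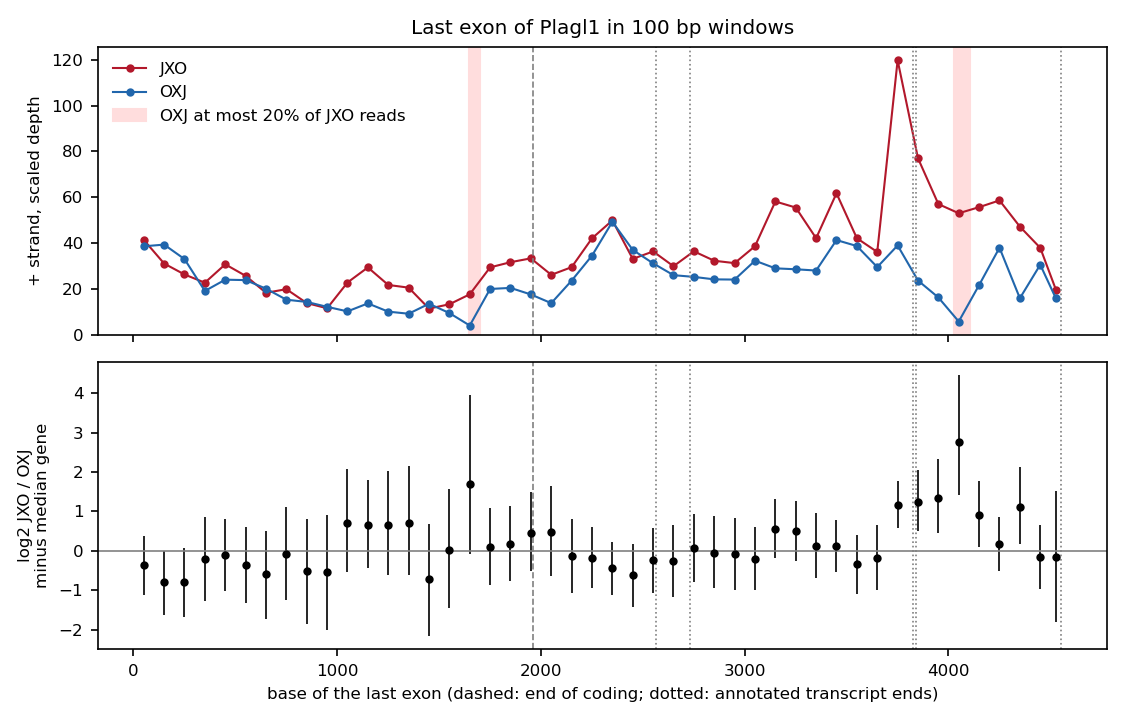
Level of the last exon of Plagl1 in 100 bp windows (the last window has 53 bases) for JXO and OXJ, and below it the log2 ratio minus the median gene with 95% counting intervals. Shaded bands mark the 2 stretches where OXJ had at most 20% of the reads of JXO, the dashed line the end of the coding sequence and dotted lines annotated transcript ends. JXO reached 120 in the window from base 3701, where OXJ was at 38.9.

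Signal on the (−) strand was low, at 0.164 (0.122 to 0.215) in JXO and 0.124 (0.0903 to 0.167) in OXJ over the whole gene. In 500 bp bins the highest value, 38.25 kb from the gene start, was 4.47 in JXO and 1.46 in OXJ. The bin at 36.75 kb was at 1.44 and 1.23, so in bins of this size a peak stood out in JXO but hardly in OXJ. A run of covered bases around the highest (−) depth (chr10:12848593-12848843) lay near the end of the coding sequence. In it the (−) level was 8.53 in JXO, with up to 27 reads, and 2.77 in OXJ, with up to 12. In each cross this was the highest (−) depth of the gene, so the run stood out in OXJ too. This run held 31.9% of the (−) signal of the gene in JXO and 13.6% in OXJ, beside a (+) level of 27.4 and 16.0. It starts at the same base as the first of the stretches where OXJ was low on the (+) strand. No exon of another gene is annotated there on either strand. In introns the (−) strand was at 0.0309 in JXO and 0.0397 in OXJ.

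Genes named with Plagl1 in growth control covered a wide range of levels. Of 25 described targets and partners 16 lay inside the deposited stretches. In both crosses 9 of them were above Plagl1 and 2 below. Of the other 645 protein-coding genes with at least 10 pairs, 256 (39.7%) were above it in both. The sets are unlike, because the 16 include the noncoding RNAs H19, which is among the 9, and Meg3. The share of genes below Plagl1 in both was not computed. The noncoding RNA H19 was the highest at 7469 in JXO and 8112 in OXJ, followed in JXO by the growth factor gene Igf2 (765 and 464) and the growth factor receptor adaptor gene Grb10 (614 and 486). Cdkn1c, a cyclin-dependent kinase inhibitor, was at 105 and 68.8 and Ccnd1, a cyclin, at 178 and 136. Lowest were Gatm, an enzyme of creatine synthesis, at 1.87 and 1.33, and Asb4 at 10.9 and 3.88. Between the crosses the median of the 16 log2 ratios was −0.02 relative to the median gene. Of these genes 1, Asb4, was at least 2-fold higher in JXO (1.03, 0.74 to 1.34) and 0 were at least 2-fold lower, against 8.59% of all genes in either direction. The paralogs Plag1 and Plagl2 lie outside the deposited stretches and were not analysed here. By the distance of the 2 log2 exon levels, over the 2 libraries, the genes most like Plagl1 among 645 protein-coding genes were Smarcd1 (25.9 and 17.9), Csrnp2 (27.4 and 16.7), Senp1 (25.6 and 16.1), Snx11 (23.95 and 16.4) and Mcts2 (27.9 and 18.6), at distances of 0.0486 to 0.143.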

How the data were processed

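The submitters' processing notes name CASAVA 1.9 and TopHat 1.2.0 with mm9, and up to 10 loci were allowed per read. The authors scaled the depth at each base to 50000000 aligned reads and deposited its log2 after adding 1, in 4 tracks, 1 for each strand of each library. Here the log2 values were turned back to depth. All depths were whole multiples of the lowest value (largest relative deviation 3.61e-14), which gives 76712608 aligned reads for JXO and 86369632 for OXJ. The tracks named forward hold (−) strand RNA. Reads with JF1 bases differ more from mm9 than those of OG2, and the effect on Plagl1 was not tested.

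Transcripts and exons were those of GENCODE M1 on mm9. Exons were merged into blocks, and covered bases at most 50 kb apart made a stretch. Genes wholly inside a stretch were measured on their own strand, and compared between crosses where both libraries together had at least 10 pairs. Intervals were exact Poisson intervals (levels), Clopper-Pearson intervals (shares) and exact conditional intervals (ratios) on pairs of 200 bases, for counting error only. Fractions of reads are read bases divided by the read length of 100. Interval code was tested on simulated data.

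Named were all parts of Plagl1, genes within 20 kb, its 2 paralogs, 25 described targets and partners (a count, and those at the ends of the order), and the 5 genes of nearest level. The gene, the lists and the rules were chosen with earlier results of these data known. Cdkn1c and Ccnd1, the comparison of intron parts, the stretches where OXJ was low and the genes named with them were chosen after values were seen. The calculations used Python 3.11.15, numpy 2.4.6, scipy 1.17.1 and matplotlib 3.10.9.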

Additional observations from a re-analysis of the deposited data

How the results depend on the processing

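There was 1 library per cross and no test between crosses. No paired analysis was possible because the groups compared share fewer than 2 replicate numbers. Of 54 values under an alternative setting, 27 stayed inside the counting interval of the reported value and 27 did not; the causes were not tested. The exon level, with JXO before OXJ, was 16.0 and 10.5 by the mean of log2 values, 29.5 and 29.2 over the 171 exon bases shared by every protein-coding transcript, and 24.4 and 15.4 by the median of 100 bp bins. The intron level over the exon level was 0.0426 and 0.0410 at least 500 bp from exons and 0.0345 and 0.0341 by the median of bins, and in OXJ 0.0588 by the mean of log2 values and 0.0394 with bases of at least 2 reads only. The sense share was 88.2% and 84.5% by covered bases, and 95.5% over introns in OXJ. The share of the first block among first exons was 19.9% and 15.9% over whole first exons and 26.1% and 21.6% by highest depth, where the parts used by inner exons count too, and it was then not the highest. Past the end, the level was 0.0193 and 3.34e-05 of the exon level over 1 kb, and in JXO 0.00226 over 20 kb. The 3′ part of the last exon held 50.5% in OXJ when the 200-base last exon of Plagl1-024, the transcript of the highest level there, was used. The intron fall at the eighth exon block was 14.6-fold in OXJ with bases of at least 2 reads only, and 3.93 to 7.501-fold under the other alternatives in both crosses. The log2 ratio of JXO over OXJ was 0.58 as deposited and 0.40 with equal deposited totals, and between 0.08 and 0.21 under 5 other alternatives, and turned to −0.45 (−1.11 to 0.22) over the shared 171 bases. Its interval included 0 without the 2 stretches (−0.03 to 0.20). The alternatives for the intron fall, those without the 2 stretches and the ratio over the shared bases were chosen after seeing the data. Depth limits parts shorter than a pair of reads, such as the short leader exons, whose intervals are wide.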
